A study of Mus musculus with 8 samples.

Results

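The genes described here encode the transferases that attach glucuronic acid, sulfate or glutathione to other molecules: the UDP-glucuronosyltransferases (UGT), the cytosolic sulfotransferases (SULT), the soluble glutathione S-transferases (GST) and the microsomal enzymes named with them (MGST). The families were chosen with earlier results of these data known, and their rows in the deposited gene table were then taken by symbol. The symbols were Ugt1 to Ugt3 with a subfamily letter a or b and a number, and Sult1 to Sult5 with a letter and a number. Also taken were Gst with a class letter (a, k, m, o, p, t or z) and a number, and Mgst and a number. This gave 61 genes of the 45777 in the table, made up of 17 UGT, 19 SULT, 22 GST and 3 MGST genes. Symbols with a further letter, such as Ugt1a6a, Ugt1a6b and Ugt1a7c, were outside this choice and are given only beside their neighbours.

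The libraries were made from polyadenylated liver RNA of male C57BL6 mice. AKT is a protein kinase downstream of the insulin receptor. The C2-AKT group (n = 4 libraries) came from a cross of mice holding a modified AKT at the ROSA26 locus with Alb-Cre mice, in which the albumin promoter drives Cre in hepatocytes. The genotype of the control group (n = 4) is labelled wild type and C2-AKT (-/-), and the labels do not say whether those mice carried Cre. Both groups ate a high-fat diet for 10 weeks, starting when the animals were 8 weeks old, so no library comes from a lean liver. Libraries are named here by group and by the replicate number in their titles, 2 to 5 in each group. A further title number, 2 for controls and 4 for C2-AKT, follows the genotype exactly, and its meaning and the genotype cannot be told apart. Nothing in the labels says that each library is a separate animal, and the p-values may therefore reflect only technical spread.

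These enzymes carry out the conjugation step of hepatic detoxification, in which a polar group is added to bilirubin, bile acids, steroid and thyroid hormones, drugs and reactive electrophiles so that they can be exported into bile or blood. UGT enzymes sit in the membrane of the endoplasmic reticulum and use UDP-glucuronic acid, SULT enzymes are cytosolic and use the sulfate donor PAPS, and GST enzymes use the tripeptide glutathione. In mouse liver many of these genes are known to respond to the receptors CAR, PXR and AHR and to the oxidant sensor NRF2, and several differ between male and female animals.

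Total counts per library lay between 51.4 and 63.8 M. The 61 genes together took between 0.978% and 1.13% of all counts in 7 libraries and 0.778% in C2-AKT replicate 5. That library also held pancreatic transcripts: a list of 10 acinar cell genes took 9.76% of its counts, a list of 6 islet hormone genes summed to 62.2 per M of all counts against 0 in the other 7 libraries, and genes below the count filter took 17.2% of its counts. CPM is the count of a gene per mega-count (M) of its library after trimmed-mean (TMM) scaling of the genes that passed the filter, and TPM is the deposited length-scaled level, which is not corrected for those pancreatic transcripts. Hepatocyte marker genes summed to between 70041 and 98380 per M of all counts. The ROSA26 transcript, whose locus carries the transgene, averaged 6.12 ± 1.55 CPM in control libraries and 0.422 ± 0.331 CPM in C2-AKT libraries, with no overlap, while Akt1 averaged 41.4 ± 7.43 and 42.7 ± 10.1 CPM.

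The families differed widely in how much of their RNA a few genes supplied. Levels between genes are compared here as TPM, averaged over all 8 libraries. Mgst1, a trimeric membrane enzyme of the endoplasmic reticulum and outer mitochondrial membrane, was the most abundant member, at 4873 TPM. Gsta3, an alpha-class GST known in mouse liver for its high activity towards aflatoxin epoxide, led the soluble GST genes at 1093 TPM. It was followed by Gstz1 at 670 TPM, which encodes the maleylacetoacetate isomerase of tyrosine breakdown, by Gstp1 at 626 TPM and by Gstm1 at 626 TPM. The per-library ranges of these last 3 genes overlapped one another, and their order differed by group: Gstp1 averaged 768 ± 224 TPM in control and 484 ± 154 TPM in C2-AKT libraries, Gstz1 662 ± 11.6 and 677 ± 105 TPM, and Gstm1 638 ± 93.3 and 614 ± 225 TPM. In contrast, the range of Gsta3, 891 to 1466 TPM, lay apart from that of Gstz1, 529 to 767 TPM. Gstt1 (243 TPM) and Gstk1 (155 TPM) came next, and the other tested GST genes, from Gsto1 at 93.2 TPM to Gstm5 at 8.25 TPM, formed a series in which neighbours overlapped.

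Among UGT genes, Ugt2b5 was highest at 550 TPM, followed by Ugt2b36 at 450 TPM, Ugt2b34 at 382 TPM and Ugt3a2 at 290 TPM. Ugt1a1, the enzyme that conjugates bilirubin, stood at 242 TPM. Neighbouring genes in this order overlapped in range down to Ugt2b38 at 61.5 TPM, after which the order fell to Ugt1a9 at 13.1 TPM with no overlap. SULT RNA was concentrated in Sult2a8, a bile acid sulfotransferase of mouse liver, at 655 TPM, then Sult1a1, a phenol sulfotransferase, at 289 TPM, Sult1d1 at 70.8 TPM and Sult1b1 at 21.7 TPM, and these 4 genes did not overlap with their neighbours in the order. Sult2a8 supplied 62.6% ± 5.52 (SD) of the summed SULT TPM in control and 61.0% ± 3.15 in C2-AKT libraries.

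At the other end, 16 of the 61 genes were too low to be tested. Among them 7 had no count in any library: Ugt2a2, Sult1c1, Sult2b1, Sult2a4, Sult2a5, Sult2a6 and Gstt4. A count of 0 allows up to 3 counts, which is 0.0452 to 0.0649 CPM in these libraries. Sult3a1, a female-predominant sulfotransferase of mouse liver, had 9, 11, 19 and 5 counts in C2-AKT libraries 2 to 5 and 0, 10, 2 and 8 in control libraries 2 to 5. Sult2a1, Sult2a2, Sult2a3, Sult3a2, Sult4a1, Gsto2, Mgst2 and Ugt2a1 had at most 8 counts in any library.

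No tested member passed the threshold between C2-AKT and control livers. With edgeR's quasi-likelihood test and Benjamini-Hochberg adjustment over 15686 genes, 0 of 45 tested members had an adjusted p under 0.05, where 0.0255% of all genes did (4 genes, all lower). Adjusted p-values of the members ran from 0.575 to 0.9999. The unadjusted p was under 0.05 for 6 of the 45, namely Gsta3, Gstp2, Ugt1a9, Ugt1a5, Mgst3 and Gstp1, against 5.13% of all genes. The 4 C2-AKT libraries lay above all 4 control libraries for 2 members, Gsta3 and Ugt1a9, against 1.35% of all genes, and below them for 1, Gstp2, against 1.63%. DESeq2 called 1 member, Gsta3, as higher, where it called 0.165% of all genes higher and 0.154% lower, and limma-voom called 0.

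The estimates were above 0 for 26 members and below 0 for 19, and 48.1% of all genes had a positive estimate. Median log2 fold changes (C2-AKT minus control) were 0.05 over the 15 tested UGT genes, -0.03 over 8 SULT genes, 0.04 over 20 GST genes and 0.13 over 2 MGST genes, beside -0.01 over all genes. A fold change beyond 0.5 on the log2 scale in either direction was estimated for 9 members (8.65% of all genes, and 4.16% of genes with at least 1 CPM). These 9 include Ugt1a10 and Sult1e1, which averaged under 1 CPM and so lie outside the set behind the 4.16%. For 23 members the 95% interval stayed within 0.5 log2 units of no change, and for 35 it stayed within 1 unit. In whole-liver RNA, fewer cells of a type and less RNA per cell cannot be told apart.

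**Figure D1:**
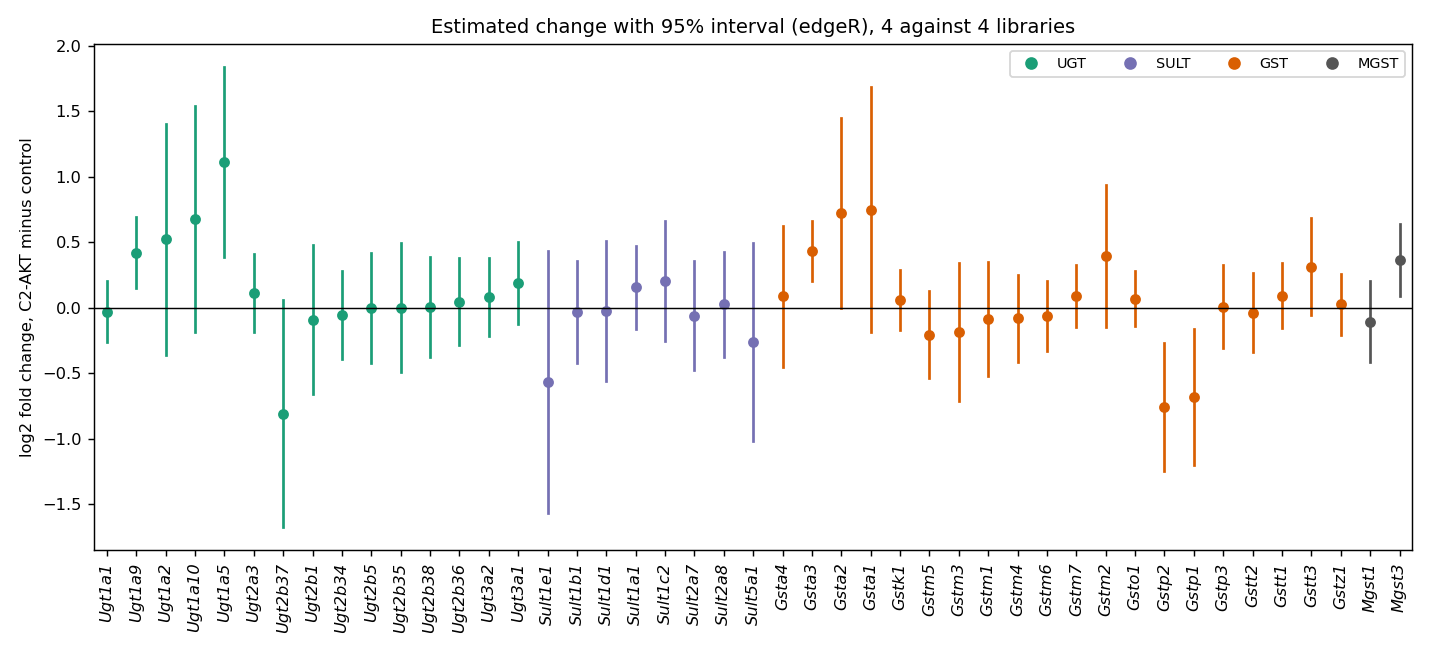
Estimated log2 fold change of each of the 45 tested members, C2-AKT minus control, with its 95% interval from edgeR, 4 against 4 libraries, coloured by family. The intervals of 6 members leave out 0: Ugt1a5, Ugt1a9, Gsta3 and Mgst3 on the higher side and Gstp1 and Gstp2 on the lower side.

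Of the 4 alpha-class GST genes, 0 were called by edgeR, and only Gsta3 had C2-AKT libraries all above the control libraries. Gsta3 (Entrez Gene 14859) lies on chromosome 1 at chr1:21240565-21265575 (GRCm38), away from the other alpha genes on chromosome 9. Its level was 836, 727, 734 and 813 CPM in control libraries 2 to 5 and 1065, 1033, 1095 and 1005 CPM in C2-AKT libraries 2 to 5. Every C2-AKT library was above every control library, and the gap between the groups exceeded the spread within either. The log2 fold change was 0.43 ± 0.10 (SE), a factor of 1.35, with an unadjusted p of 0.00170 and an adjusted p of 0.575 by edgeR, so the difference was not called. DESeq2 gave the same gene a log2 fold change of 0.44 and an adjusted p of 0.000515. Over the 22 alternative settings the estimate stayed between 0.40 and 0.48, with adjusted p-values from 0.000515 to 0.9999, and it was 0.45 without C2-AKT replicate 5. In TPM, Gsta3 made up 23.8% ± 2.24 of the summed GST level in control and 31.9% ± 2.31 in C2-AKT libraries. No stretch of 100 bases in its transcript occurs in another annotated transcript, so a read of that length would have a single origin, although the annotation places Gm28836 over the same locus and the labels do not say whether counting used strand.

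Gsta1 and Gsta2, whose proteins conjugate products of lipid peroxidation and which are known to be inducible in mouse liver, were less abundant and more variable. Gsta2 measured 4.85, 7.30, 5.78 and 6.43 CPM in control libraries 2 to 5 and 6.48, 17.9, 10.1 and 5.71 CPM in C2-AKT libraries 2 to 5. C2-AKT replicate 3 was far above the rest and replicates 2 and 5 were inside the control range, so the groups overlapped. Its log2 fold change was 0.72 ± 0.33, with an adjusted p of 0.968 by edgeR. Without C2-AKT replicate 3 it was 0.29, and among the 5 libraries whose titles end in _1 it was 1.23. The estimate for Gsta1 was 0.75 ± 0.42 (adjusted p = 0.999), ranging from 0.51 to 1.48 over the alternatives. The coding sequences of Gsta1 and Gsta2 match at 97.5% of positions, and 81.8% of the 100-base stretches of Gsta1 recur in other genes, mainly Gm3776, Gsta2 and Gm10639, so the split of reads among them is uncertain. The 4 genes together summed to 13.1 ± 3.56 CPM in control libraries and 22.4 ± 10.6 CPM in C2-AKT libraries. Gsta4, the alpha enzyme with high activity for 4-hydroxynonenal, had an estimate of 0.09 ± 0.24. The whole alpha class summed to 813 ± 54.5 CPM in control libraries and 1093 ± 43.0 CPM in C2-AKT libraries. Most of this was Gsta3, at 777 ± 55.3 and 1049 ± 39.0 CPM, so the class total is not a separate result.

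**Figure D2:**
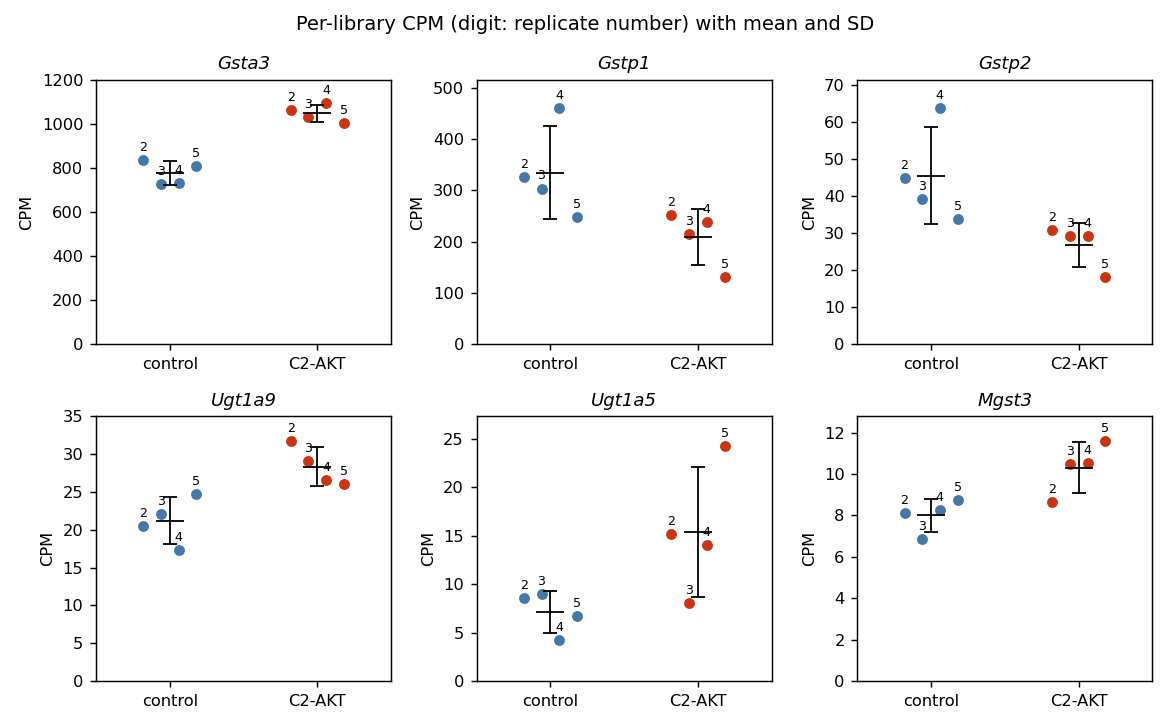
CPM in each library of the 6 members with an unadjusted p under 0.05, with the mean and SD of each group and the library number beside each point. The groups are apart for Gsta3, Ugt1a9 and Gstp2 and overlap for Gstp1, Ugt1a5 and Mgst3.

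Of the 3 pi-class genes, 0 were called by edgeR; Gstp1 and Gstp2 had negative estimates and Gstp3 an estimate near 0. Gstp1 and Gstp2 stand next to each other on chromosome 19, at chr19:4035411-4037912 and chr19:4040288-4042221 (GRCm38), and encode enzymes that conjugate electrophiles. In mouse liver pi-class enzyme is known to be more abundant in males. Their coding sequences, read from GENCODE M21, have 633 bases each and match at 98.1% of positions, with 12 mismatches. The first 60 bases are shown because reads can be told apart only where the genes differ, and capitals mark the 6 differing positions of this stretch.
Gstp1: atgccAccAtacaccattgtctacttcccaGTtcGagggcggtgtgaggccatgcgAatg
Gstp2: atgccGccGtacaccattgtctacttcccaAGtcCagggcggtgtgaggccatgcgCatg

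Gstp2 measured 45.1, 39.3, 63.9 and 33.9 CPM in control libraries 2 to 5 and 31.0, 29.3, 29.4 and 18.1 CPM in C2-AKT libraries 2 to 5. The groups did not overlap, but control replicate 5 and C2-AKT replicate 2 were close together, with control replicate 4 highest and C2-AKT replicate 5 lowest. The log2 fold change was -0.76 ± 0.22, with an unadjusted p of 0.00603 and an adjusted p of 0.762 by edgeR. Gstp1 measured 327, 304, 461 and 248 CPM in control libraries and 252, 215, 239 and 131 CPM in C2-AKT libraries, and there C2-AKT replicate 2 lay just above control replicate 5. Its log2 fold change was -0.68 ± 0.23 (adjusted p = 0.832). Leaving out 1 library moved these estimates most for C2-AKT replicate 5, to -0.61 for Gstp2 and -0.51 for Gstp1, and for control replicate 4, to -0.55 and -0.49.

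Of the 100-base stretches of Gstp1, 52.8% occur in other genes, and of Gstp2, 63.5%; both share them with each other and with the pseudogene Gstp-ps on chromosome 1. For every 100 counts of Gstp1 there were between 12.3 and 13.9 counts of Gstp2 and between 41.7 and 52.5 counts of Gstp-ps in all 8 libraries. The split among the 3 genes is therefore uncertain, and their sum is the firmer quantity. It was 537 ± 153 CPM in control libraries and 335 ± 81.6 CPM in C2-AKT libraries, a ratio of 0.624. In this sum the groups overlapped, unlike in Gstp2 alone: C2-AKT replicate 2 was at 402 CPM and control replicate 5 at 396 CPM. Gstp3, which lies beside them but matches Gstp1 at only 72.5% of coding positions and shares no 100-base stretch with another gene, averaged 9.89 ± 1.33 CPM in control libraries and 9.96 ± 1.58 CPM in C2-AKT libraries, with an estimate of 0.01 ± 0.14.

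The mu class, encoded by 7 neighbouring genes on chromosome 3, had 2 positive and 5 negative estimates and a median of -0.08. Gstm1, a broad-range hepatic detoxification enzyme, measured 487, 495, 549 and 420 CPM in control libraries and 318, 620, 510 and 395 CPM in C2-AKT libraries. Both the highest and the lowest library belonged to C2-AKT. Its estimate was -0.08 ± 0.20 (adjusted p = 0.9999) and turned positive, to 0.15, among the libraries whose titles end in _1. Gstm2 had the largest estimate of the class, 0.40 ± 0.24. In the theta class, Gstt3 had an estimate of 0.31 ± 0.16 (adjusted p = 0.995), with 30.1, 39.5, 25.4 and 38.9 CPM in control libraries and 44.96, 48.0, 32.7 and 40.6 CPM in C2-AKT libraries, and the groups overlapped. For Gstt1, Gstt2, Gstk1, Gsto1 and Gstz1 the estimates lay between -0.04 and 0.09. Gstz1 averaged 630 ± 26.04 CPM in control libraries and 641 ± 52.2 CPM in C2-AKT libraries, and its interval ran from -0.21 to 0.26.

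**Figure D3:**
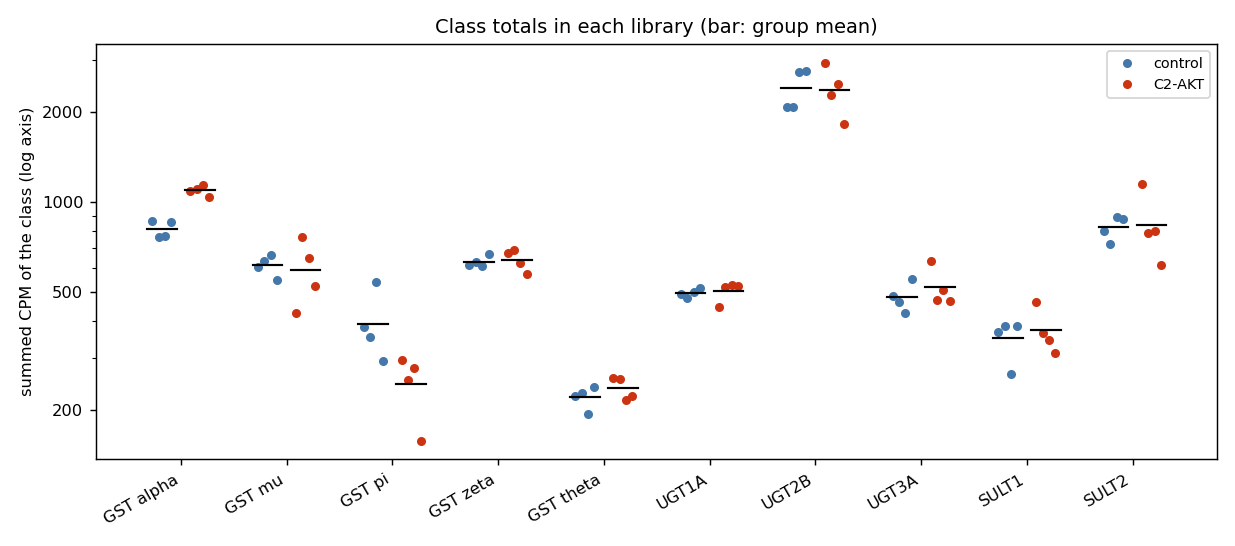
Summed CPM of each class in each library on a log axis, with control libraries in blue, C2-AKT libraries in red and the mean of each group as a bar; totals are to be compared within a class only. The alpha totals of the 2 groups are apart, 813 against 1093 CPM on average, and consist mostly of Gsta3, at 777 and 1049 CPM. The pi totals, 390 against 246 CPM on average, overlap by 1 library.

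The UGT1A genes are encoded by a single locus on chromosome 1, ending at base 88220002 of GRCm38, in which each gene has its own first exon and all share the rest. In the GENCODE M21 coding sequences of Ugt1a1, Ugt1a2, Ugt1a5, Ugt1a9 and Ugt1a10 the last 740 bases are identical, which is 46.0% to 46.6% of each. Only reads that reach into the first part can be assigned to 1 gene. The junction is shown with the end of each first part in lower case and the start of the shared part in capitals, where Ugt1a2 and Ugt1a5 are identical.
Ugt1a1: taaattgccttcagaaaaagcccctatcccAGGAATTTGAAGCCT
Ugt1a2: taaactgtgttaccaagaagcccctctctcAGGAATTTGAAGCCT
Ugt1a5: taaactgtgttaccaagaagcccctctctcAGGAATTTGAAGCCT
Ugt1a9: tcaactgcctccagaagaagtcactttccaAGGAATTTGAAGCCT
Ugt1a10: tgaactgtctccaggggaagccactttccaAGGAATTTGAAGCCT

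Ugt1a1 itself differed little between the groups. It measured 459, 442, 475 and 478 CPM in control libraries and 393, 477, 484 and 463 CPM in C2-AKT libraries, with an estimate of -0.03 ± 0.10 and an interval from -0.26 to 0.21. The 4 less abundant UGT1A genes had positive estimates. Ugt1a9, a phenol-conjugating enzyme, measured 20.6, 22.2, 17.3 and 24.8 CPM in control libraries and 31.7, 29.1, 26.6 and 26.01 CPM in C2-AKT libraries, and the groups did not overlap. Its log2 fold change was 0.42 ± 0.12, with an unadjusted p of 0.00615 and an adjusted p of 0.762 by edgeR, and it lay between 0.33 and 0.50 over the alternatives.

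Ugt1a5 measured 8.52, 9.03, 4.22 and 6.74 CPM in control libraries and 15.2, 8.02, 14.01 and 24.3 CPM in C2-AKT libraries. C2-AKT replicate 3 lay within the control range and replicate 5 was the highest. The estimate, 1.11 ± 0.33, was the largest of any tested member, and its adjusted p was 0.774 by edgeR. It was 0.80 without C2-AKT replicate 5 and 0.61 among the libraries whose titles end in _1. Ugt1a10 had an estimate of 0.68 ± 0.39 at levels of at most 1.37 CPM. Ugt1a2 had 0.52 ± 0.40, which rested on C2-AKT replicate 5, at 6.30 CPM against 1.71 to 2.84 CPM elsewhere, and became -0.06 without it. These 4 genes together summed to 31.2 ± 5.26 CPM in control libraries and 48.1 ± 8.00 CPM in C2-AKT libraries. Of the UGT1A genes outside the choice, Ugt1a6a averaged 117 ± 0.999 and 130 ± 6.52 CPM with no overlap between groups, and Ugt1a6b 194 ± 13.3 and 216 ± 18.7 CPM, with adjusted p-values of 0.995 and 0.9999 by edgeR.

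The UGT2 genes, which conjugate steroids, bile acids and fatty acids, lie within a cluster on chromosome 5 from 86889770 to 87591611 (GRCm38) that also holds Sult1b1, Sult1d1 and Sult1e1. Most had estimates near 0, with intervals such as -0.42 to 0.42 for Ugt2b5 and -0.66 to 0.48 for Ugt2b1. Ugt2b5, the most abundant, measured 538, 490, 682 and 740 CPM in control libraries and 734, 615, 666 and 431 CPM in C2-AKT libraries, with an estimate of -0.00 ± 0.19. Its neighbours Ugt2b36, Ugt2b34, Ugt2b35 and Ugt2b38 had estimates between -0.05 and 0.05, Ugt2b1 had -0.09 ± 0.26 and Ugt2a3 had 0.11 ± 0.13. The coding sequences of Ugt2b5 and Ugt2b38 match at 97.0% of positions, and 24.7% and 24.2% of their 100-base stretches recur in each other or in Ugt2b37. Ugt2b37, a close relative expressed far below them, measured 5.87, 5.56, 5.97 and 6.198 CPM in control libraries and 6.45, 2.69, 3.14 and 1.17 CPM in C2-AKT libraries. Control libraries were within 1 CPM of each other, while C2-AKT replicate 2 was above all of them and the other 3 below. The estimate was -0.81 ± 0.39 (adjusted p = 0.994), and it ranged from -1.33 without C2-AKT replicate 2 to -0.53 without C2-AKT replicate 5.

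The human UGT3A enzymes are known to use other UDP-sugars in place of UDP-glucuronic acid. Ugt3a1 and Ugt3a2, a pair on chromosome 15, had estimates of 0.19 ± 0.14 and 0.08 ± 0.13 (adjusted p = 0.9999 for both). Ugt3a2 averaged 364 ± 35.8 CPM in control libraries and 386 ± 61.4 CPM in C2-AKT libraries, and Ugt3a1 116 ± 19.9 and 132 ± 16.3 CPM.

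None of the 8 tested SULT genes had an unadjusted p under 0.05, with adjusted p-values of 0.9999 by edgeR for all 8. DESeq2 and limma-voom called 0 of them. Sult2a8 measured 797, 721, 887 and 870 CPM in control libraries and 1147, 782, 794 and 613 CPM in C2-AKT libraries. The highest and the lowest library were both C2-AKT, and the estimate was 0.03 ± 0.18. Sult1a1 measured 225, 233, 153 and 228 CPM in control libraries and 258, 234, 228 and 214 CPM in C2-AKT libraries, with control replicate 4 standing below the rest. Its estimate of 0.16 ± 0.14 became 0.03 without that library. Sult1d1, which sulfates catecholamines and eicosanoids, measured 106, 107, 76.3 and 115 CPM in control libraries and 156, 91.0, 80.1 and 69.8 CPM in C2-AKT libraries, with an estimate of -0.02 ± 0.24. Leaving out C2-AKT replicate 2 gave -0.33, and leaving out C2-AKT replicate 5 gave 0.11.

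Sult1e1, the estrogen sulfotransferase, was the least abundant tested SULT gene, at 20 to 84 counts per library, with 0.658, 0.958, 0.364 and 1.61 CPM in control libraries and 0.9502, 0.527, 0.498 and 0.433 CPM in C2-AKT libraries. The estimate was -0.57 ± 0.45 and its interval ran from -1.57 to 0.43. Without control replicate 5 it was -0.12. Sult1b1, a thyroid hormone sulfotransferase, had an estimate of -0.03 ± 0.17, Sult1c2 had 0.21 ± 0.21, Sult2a7 had -0.06 ± 0.19 and Sult5a1 had -0.26 ± 0.34.

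Among the microsomal genes, Mgst1 on chromosome 6 measured 2623, 2549, 2904 and 3440 CPM in control libraries and 3171, 2487, 2559 and 2490 CPM in C2-AKT libraries. The groups overlapped, with 1 high library in each. The estimate was -0.11 ± 0.14, with an interval from -0.41 to 0.20, and it ran from -0.20 without C2-AKT replicate 2 to -0.01 without control replicate 5. Mgst1 lies on the chromosome of the transgene, 25.1 megabases from the ROSA26 transcript. Mgst3, a relative that also has leukotriene synthase activity, measured 8.13, 6.84, 8.28 and 8.75 CPM in control libraries and 8.63, 10.5, 10.5 and 11.6 CPM in C2-AKT libraries. Only C2-AKT replicate 2 reached into the control range. The log2 fold change was 0.37 ± 0.12 (adjusted p = 0.832 by edgeR), and 0.30 without C2-AKT replicate 5.

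The upstream sequences are shown for the 3 members whose groups did not overlap, Gsta3, Ugt1a9 and Gstp2, and for Gstp1, the near-identical neighbour of Gstp2. Each is the 250 bases before an annotated start, from RefSeq (GRCm38.p6), read 5′ to 3′ on the gene's strand. For Gsta3 that start lies inside the gene interval given above, and the window runs past its first base, 21240565, to 21240584. Capitals mark matches on either strand to TGANNNNGC, the core of the antioxidant response element bound by NRF2, to GGGCGG, the GC box, and to TATAAA, the TATA box.
Gsta3, chr1:21240335-21240584, plus strand: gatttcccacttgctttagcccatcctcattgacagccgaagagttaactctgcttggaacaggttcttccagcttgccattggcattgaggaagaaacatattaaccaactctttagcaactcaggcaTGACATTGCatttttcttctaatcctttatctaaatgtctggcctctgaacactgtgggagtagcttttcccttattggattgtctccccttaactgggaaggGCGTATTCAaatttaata
Ugt1a9, chr1:88070529-88070778, plus strand: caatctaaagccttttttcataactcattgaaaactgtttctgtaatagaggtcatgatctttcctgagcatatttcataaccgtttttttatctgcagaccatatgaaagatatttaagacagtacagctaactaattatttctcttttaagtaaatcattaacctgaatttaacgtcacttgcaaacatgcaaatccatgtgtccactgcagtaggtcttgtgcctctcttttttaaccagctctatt
Gstp1, chr19:4037913-4038162, minus strand: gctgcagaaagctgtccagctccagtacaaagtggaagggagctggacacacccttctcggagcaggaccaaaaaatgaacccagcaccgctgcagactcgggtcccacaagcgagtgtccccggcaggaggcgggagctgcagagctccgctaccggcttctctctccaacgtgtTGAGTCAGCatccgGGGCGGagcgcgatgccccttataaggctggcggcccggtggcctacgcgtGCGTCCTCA
Gstp2, chr19:4042222-4042471, minus strand: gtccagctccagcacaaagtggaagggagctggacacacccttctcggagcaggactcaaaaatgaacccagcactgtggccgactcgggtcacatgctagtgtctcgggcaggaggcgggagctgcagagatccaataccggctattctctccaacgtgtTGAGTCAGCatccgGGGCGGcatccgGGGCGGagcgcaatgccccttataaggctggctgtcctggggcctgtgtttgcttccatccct

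Gstp1 and Gstp2 carry the same match TGAGTCAGC, 74 and 89 bases before the start, followed by 1 GC box in Gstp1 and 2 in Gstp2. Gstp1 has a further match to TGANNNNGC, GCGTCCTCA on the other strand, 9 bases before the start. The windows of Gstp1 and Gstp2 match at 78.1% of aligned positions. Gsta3 has no GC box and 2 matches to TGANNNNGC, the nearer 18 bases before the start used and inside the gene interval. The window of Ugt1a9 holds none of the motifs searched, which says only that those letters are not in it. TGANNNNGC occurred in 34.8% of the 66 windows of the 54 matched members and in 35.2% of all 32851 windows. GGGCGG occurred in 24.2% of the members' windows and 32.7% of all, TATAAA in 19.7% and 12.4%, and GTAAACA, a FOXO site, in 6.06% and 3.17%. In the 51 windows of tested members the shares were 43.1% for TGANNNNGC, 27.5% for GGGCGG, 11.8% for TATAAA and 7.84% for GTAAACA. Longer motifs and occupancy were not examined, and a match is a description of the letters.

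Genes that supply, use or regulate the same pathways were taken from 11 lists, and edgeR called 0 of their tested genes in either direction, as did DESeq2 and limma-voom. In the supply of UDP-glucuronic acid, 0 of 7 tested genes were called, with a median of 0.08, and Ugdh, which makes the donor, had an estimate of 0.08 ± 0.15. Among 9 genes of sulfate donor supply the median was -0.01, and the sulfate transporter Slc26a1 had the smallest unadjusted p, 0.0331, with an estimate of 0.33 ± 0.13. Of 14 genes of glutathione synthesis and turnover, 7 had positive estimates, among them Gclm, the modifier subunit of glutamate-cysteine ligase, at 0.22 ± 0.13. The 8 export pumps had a median of 0.09, with Abcg2 at -0.20 ± 0.11.

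The 19 NRF2 targets outside the families had a median of 0.04, with 12 positive. Osgin1, an oxidative stress response gene, had the smallest unadjusted p among them, with 268 ± 72.1 CPM in control libraries and 159 ± 41.8 CPM in C2-AKT libraries (log2 fold change -0.76 ± 0.22, adjusted p = 0.762 by edgeR). The 12 targets of CAR, PXR and AHR had a median of -0.09, and Cyp2c55, Ces2a and Alas1 had estimates of -1.71 ± 0.60, -0.66 ± 0.28 and 0.63 ± 0.27 (adjusted p = 0.846, 0.954 and 0.954). Of the 18 regulators listed, the pioneer factor Foxa2 had 0.59 ± 0.18 and the repressor Bcl6, which is more abundant in male liver, had -1.61 ± 0.53 (adjusted p = 0.779 and 0.827). Among 15 other conjugating enzymes, the thiopurine methyltransferase Tpmt had 0.51 ± 0.24. In the deconjugation list, Sumf2 had 4 C2-AKT libraries below all 4 control libraries, as 1.63% of all genes did, at an estimate of -0.21 ± 0.11.

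Genes known to differ between male and female mouse liver are given because several transferases belong to them. Of 12 tested genes of the male list, 11 had negative estimates, with a median of -0.56, and 0 were called; C8a had -0.42 ± 0.14, Cyp4a12a -0.82 ± 0.37 and Mup20 -0.58 ± 0.28. Of 10 tested genes of the female list, 8 had positive estimates, with a median of 0.71, and 0 were called. Cyp2a4 had 0.97 ± 0.26, Cyp2b9 0.88 ± 0.34 and Cyp3a44 -1.09 ± 0.46. For Cyp2a4 the C2-AKT libraries lay above all control libraries, as for 1.35% of all genes. Over all genes, 48.1% of estimates were positive and the median was -0.01. Some list genes varied widely within C2-AKT libraries, such as Hsd3b5, from 2.60 to 129 CPM, and Cyp2b13, from 1.70 to 36.3 CPM. Whether single libraries carry the list medians was not tested. The male list holds 1 tested member, Ugt2b38, at 0.01 ± 0.17. The female list holds Sult2a1, Sult2a2 and Sult3a1, none of which could be tested. Whether these lists and the GST values move for the same reason was not tested.

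Single libraries supplied many of the extreme values. The library holding pancreatic transcripts, C2-AKT replicate 5, was lowest in 7 of 8 tested UGT2 genes and in 14 of 45 members, and C2-AKT replicate 2 was highest in 5 of 8 UGT2 genes and in 16 of 45 members. How often these libraries were lowest or highest over all genes was not counted, so the counts cannot be read as particular to the members. The part of the pancreatic transcripts in these values was not tested beyond leaving C2-AKT replicate 5 out. Without that library the family medians were 0.13 for UGT, 0.11 for SULT, 0.07 for GST and 0.12 for MGST, and 0 members were called.

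**Figure D4:**
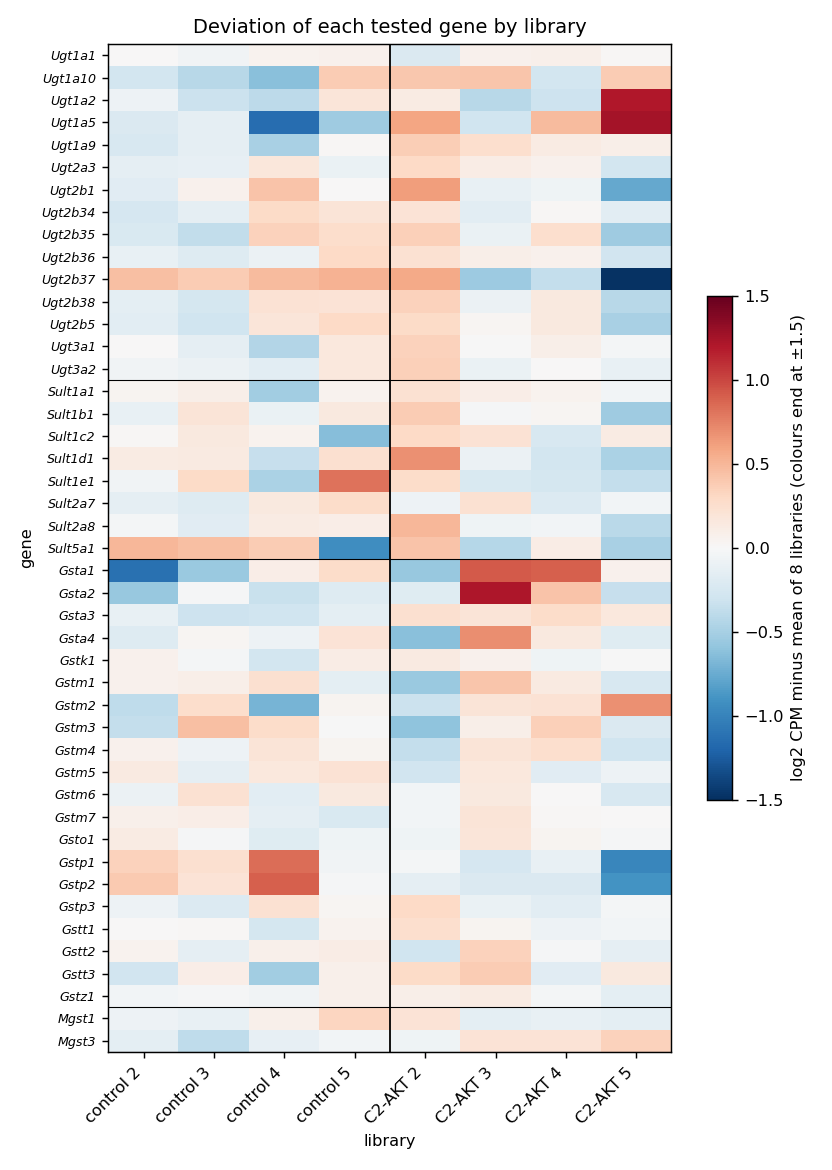
Deviation of each tested member from its mean over the 8 libraries, in log2 CPM, with genes in rows and libraries in columns; red is above and blue below the mean, and colours end at 1.5 log2 units. Gstp1 and Gstp2 are red in control 4 and blue in C2-AKT 5, and most UGT2 genes are blue in C2-AKT 5.

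Library titles differ in their endings, which the labels do not explain: 5 titles end in _1, that of C2-AKT replicate 5 ends in _2, and the titles of C2-AKT replicate 2 and control replicate 5 stop at the number. Libraries with no ending were compared with those ending in _1, over 7 libraries with genotype as a term. Of 46 members tested, 1 was called by edgeR, Ugt3a2, where 10.2% of all genes were called. Ugt3a2 averaged 446 CPM in libraries with no ending and 353 CPM in the others, a log2 difference of 0.32 ± 0.08 (adjusted p = 0.0481). Ugt3a2 was no longer called when any 1 of the 7 libraries was left out; without control replicate 5 the only member called was Ugt2b37, and without C2-AKT replicate 2 it was Sult5a1. DESeq2 called 5 of the 45 members to which it gave an adjusted p, where it called 16% of all genes: Gstm1, Mgst1, Sult1d1, Ugt2b36 and Ugt3a2. At an unadjusted p under 0.05 there were 12 members of 46, against 27.6% of all genes. Positive estimates were found for 14 of 15 UGT genes and for 7936 of all 15949 genes tested. The no-ending side is C2-AKT replicate 2, highest of the 8 libraries in 5 of 8 tested UGT2 genes, and control replicate 5, highest in 2. Gstm1 had -0.53 ± 0.15 (adjusted p = 0.0574) and Mgst1 0.34 ± 0.10 (adjusted p = 0.0720). For Gsta3 this difference was 0.05 ± 0.10, and with the ending as a term its C2-AKT estimate was 0.45. The estimate for Gstp2 became -0.57 and that for Gstp1 -0.47 in that fit.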

How the data were processed

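Liver RNA was sequenced in 8 libraries, 4 control and 4 C2-AKT. The submitters' processing notes name the tools StringTie 2.1.3b, HISAT2 2.1.0, Trimmomatic and bcl2fastq 2.20.0 and the builds mm10 and GRCm38. Tool settings, the way the counts were made and the library strand are not stated in these notes. The deposited estimated counts are whole numbers. The authors also deposited FPKM and TPM values, which by their column names are scaled for transcript length and depth. Columns were matched to libraries by title.

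From the counts, genes were kept with filterByExpr at its defaults (minimum count 10), scaled by TMM and tested with edgeR 4.0.16 (R 4.3.3), quasi-likelihood, two-sided, Benjamini-Hochberg adjustment over all 15686 genes, threshold 0.05, no covariate, after a check on simulated data. Standard errors are the log2 fold change over the square root of F. Floors on counts cover counting error only. Intervals of the log2 fold change were built from the standard errors above, so spread between libraries enters them as well. Total counts were 51.4 to 63.8 M per library.

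Alternatives were DESeq2 1.42.0, limma 3.58.1 (voom, log2(TPM + 1), log2(TPM + 0.1) and log2(FPKM + 1)), other scalings and filters, a replicate block, title endings and leaving out each library. Coding sequences came from GENCODE M21 and upstream windows from RefSeq (GRCm38.p6). Members, gene lists and tests were chosen with earlier results of these data known. Named members were the 6 of each family with the smallest p (all of MGST), the 4 most abundant of each family, those whose groups did not overlap, those past a threshold and those flagged for an outlying library or title ending; up to 3 genes with the smallest p were taken from each list. Others, such as Ugt1a1, Gsta4, Gstm2, Gstp3, Ugdh and the near copies, were named after their values were seen or for their shared sequence.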

Additional observations from a re-analysis of the deposited data

Results flagged for a closer look

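A library was singled out where its gap to the nearest of its group's other 3 libraries exceeded Dixon's 95% critical value for 4 samples, as a share of the group's range. This was tested in 90 groups, 2 for each of 45 members, and chance alone marks about 1 in 20 groups. Values stood apart in 6 of them. In control libraries, Sult1a1 was low in replicate 4 at 153 CPM, with the others at 225 to 233 CPM, and Ugt2a3 was high in the same library at 235 CPM, with the others at 191 to 195 CPM. Sult5a1 was low in control replicate 5 at 2.94 CPM, with the others at 8.04 to 8.77 CPM. In C2-AKT libraries, Gstp2 was low in replicate 5 at 18.1 CPM, with the others at 29.3 to 31.0 CPM. Mgst1 was high in C2-AKT replicate 2 at 3171 CPM, with the others at 2487 to 2559 CPM. Ugt1a10 was low in C2-AKT replicate 4 at 0.663 CPM, with the others at 1.32 to 1.37 CPM.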

How the results depend on the processing

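Across 22 alternatives, the count of members called between C2-AKT and control was 0 except under DESeq2, which called 1 (Gsta3, adjusted p = 0.000515). Of 632 values of 29 named members under alternatives, 1 passed the threshold (Gsta3) and 0 reversed as a called value. In 628 the threshold was not crossed, and the sign held or changed with a shift below the gene's spread. Where the sign held, a shift of any size was allowed, such as 0.29 to 1.23 for Gsta2. The other 3 values changed sign with a larger shift. In 46 of the 632 values the sign changed with neither value past the threshold. Among them was Ugt1a2, which became -0.11 with the title ending as a term, -0.13 with only titles ending in _1 and -0.06 without C2-AKT replicate 5. The MGST median moved from 0.13 to -0.11 with no count filter, -0.10 under DESeq2 and -0.000191 with log2(FPKM + 1), settings under which the barely counted Mgst2 enters the median. The number of all genes called was 4, but 58 under DESeq2, 2 with log2(FPKM + 1) and 17 with only titles ending in _1, and it ran from 1 (without control replicate 2) to 17 (without C2-AKT replicate 2) when 1 library was left out, with 7 without C2-AKT replicate 3. The number of members called between title endings was 1, but 2 among genes averaging 1 CPM or more and 5 under DESeq2, and 0 to 1 when 1 library was left out. With a replicate block, 0 members and 4 genes in all were called; deviations of same-numbered libraries correlated at -0.20, 0.01, 0.09 and -0.04, so the numbers were not taken to pair the libraries. Where not stated otherwise, the cause of a change was not tested. Intervals of the low members Ugt1a10 and Sult1e1 span more than 1 log2 unit. So do those of some abundant members, such as Gstp1, from -1.20 to -0.16, and Ugt2b1, from -0.66 to 0.48. The shares of counting error and of spread between libraries were not separated.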
